A study of Mus musculus with 155 samples.

Results

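The genes described here are the Hox genes of the HoxA, HoxB, HoxC and HoxD clusters, taken from a list of 38 symbols and looked up by gene identifier in the RNA-seq count tables of a mouse embryonic stem cell (ESC) study. Of the 38, 37 had a row among the 55471 genes counted, and the expression of Hoxd4 was not analysed here. All cells were KH2 mouse ESCs, or cells derived from them, that carried 1 extra doxycycline (Dox)-inducible copy of SNAP-HA-tagged histone H3.3, either WT, K27M (lysine 27 to methionine, the mutation of diffuse midline glioma) or K27L (lysine 27 to leucine). Dox was given at every sampled time, so the controls also expressed the tagged histone. The undifferentiated ESCs comprised 32 libraries: WT, K27M, K27L and the WT line with Dox plus the PRC2 inhibitor GSK343 (labelled GSK), each at 4, 8, 24 and 72 h of Dox with 2 replicates. The retinoic acid (RA) cells, labelled neural progenitors, comprised 6 libraries: WT, K27M and K27L at 24 and 72 h of Dox, 1 library each. The cells labelled oligodendrocyte progenitor cells (OPC), made through embryoid bodies with RA and purmorphamine, comprised 4 libraries: WT and K27M at 24 and 72 h, 1 each. The number of clones behind each line is not given in the sources used here, and all lines carried a potential duplication of chromosome 8, which holds no Hox gene and was left out. No library came from cells without Dox or without the transgene.

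Hox genes encode homeodomain transcription factors that give cells of the embryo their position along the head-to-tail axis. Each cluster is a row of genes numbered by paralog group. The low-numbered genes at the 3′ end are the first to be switched on by RA and mark the hindbrain, and the high-numbered genes at the 5′ end mark the trunk and tail. In ESCs the clusters are textbook targets of Polycomb repression, in which PRC2 places H3K27me3 on the chromatin. The Hox proteins bind DNA together with Pbx and Meis cofactors, and Cdx factors switch on the central Hox genes of the trunk.

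Promoters were drawn from RefSeq (GRCm38.p6), which held 24 promoters of 22 of the members, each 300 bases around a start site, with Hoxd4 among them. The 5 shown belong to genes on which the comparisons below turn and hold a short motif of a regulator of the clusters. Capitals mark AGGTCA, the hexamer bound by nuclear receptors such as the RA receptors, TGATNNAT, a Hox-Pbx motif, and TTTATG, a Cdx motif, on either strand. In the Hoxb8 sequence the Cdx motif stands once on each strand.
Hoxb1, chr11:96365508-96365807, plus strand: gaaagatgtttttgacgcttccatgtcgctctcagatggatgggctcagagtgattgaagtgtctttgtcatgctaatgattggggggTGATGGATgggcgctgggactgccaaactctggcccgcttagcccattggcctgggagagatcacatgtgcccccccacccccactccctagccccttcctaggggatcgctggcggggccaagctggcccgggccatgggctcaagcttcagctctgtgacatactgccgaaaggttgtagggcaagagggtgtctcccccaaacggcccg
Hoxb8, chr11:96281655-96281954, plus strand: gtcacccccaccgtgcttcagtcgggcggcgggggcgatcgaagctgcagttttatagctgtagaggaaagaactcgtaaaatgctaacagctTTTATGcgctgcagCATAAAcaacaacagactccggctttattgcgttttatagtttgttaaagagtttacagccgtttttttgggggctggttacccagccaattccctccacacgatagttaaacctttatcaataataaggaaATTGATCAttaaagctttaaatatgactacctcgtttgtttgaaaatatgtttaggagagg
Hoxa5, chr6:52204538-52204837, minus strand: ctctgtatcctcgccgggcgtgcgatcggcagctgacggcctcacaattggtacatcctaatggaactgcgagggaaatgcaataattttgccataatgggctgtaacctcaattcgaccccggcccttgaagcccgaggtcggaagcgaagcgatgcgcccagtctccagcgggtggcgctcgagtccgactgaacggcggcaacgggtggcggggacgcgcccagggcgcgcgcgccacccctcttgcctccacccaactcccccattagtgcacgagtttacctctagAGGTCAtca
Hoxc4, chr15:103034145-103034444, plus strand: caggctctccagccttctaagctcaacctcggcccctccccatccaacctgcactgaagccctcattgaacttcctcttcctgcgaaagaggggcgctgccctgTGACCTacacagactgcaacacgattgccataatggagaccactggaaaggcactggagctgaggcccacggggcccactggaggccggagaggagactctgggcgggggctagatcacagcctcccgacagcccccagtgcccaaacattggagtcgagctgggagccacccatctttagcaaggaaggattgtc
Hoxd8, chr2:74704365-74704664, plus strand: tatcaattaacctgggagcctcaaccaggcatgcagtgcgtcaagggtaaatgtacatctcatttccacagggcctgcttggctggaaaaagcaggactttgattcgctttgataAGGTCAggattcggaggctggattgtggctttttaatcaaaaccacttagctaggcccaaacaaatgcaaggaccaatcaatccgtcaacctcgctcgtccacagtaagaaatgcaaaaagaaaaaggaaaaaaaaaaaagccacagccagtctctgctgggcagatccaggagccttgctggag

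AGGTCA was present in 7 of the 24 Hox promoters (29.2%) and in 16.3% of all 32851 promoters. TGATNNAT was present in 4 of 24 (16.7%) against 8.85%, and TTTATG in 5 of 24 (20.8%) against 11.9%. The Hox promoters had a median GC content of 57.7% against 52.7% and a median of 14.5 CpG dinucleotides against 7. A match is only a match of letters, and no binding of these factors was measured here.

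Total counts ranged from 6336754 to 21161392 in ESC libraries of the 3 lines, except for K27L 72 h replicate 2, which held 68378 counts, 4 of them on Hox genes. The GSK libraries held 1247934 to 8724336 counts, the RA libraries 2239137 to 22269533 and the OPC libraries 7499258 to 12387113. Levels are given as CPM, a gene's counts relative to its library's total after TMM scaling over the 42 libraries. Whether a library was made with the QuantSeq 3′ kit or the KAPA kit is not stated per sample, so kit, stage and Dox time cannot be told apart where they vary together. In these bulk libraries fewer cells of a type and less RNA per cell cannot be told apart. The p-values measure the spread between libraries that each model leaves over. For the OPC cells that is the spread between single libraries at 2 Dox times. The RA model holds a Dox time term, so its spread is the departure of 6 single libraries from a shared time effect, with no replicate library. The tests between stages take their spread from all 42 libraries, of which 32 are ESC libraries.

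In undifferentiated ESCs most Hox genes were close to silent, and the exceptions lay mainly at the 5′ ends of the clusters. Of the 37 genes, 22 had a mean below 1 CPM over the 32 ESC libraries, and 5 had 10 counts or fewer in all of them together. Hoxb5, a gene of the neck level, had a single count. Of the 15 genes at or above 1 CPM, 10 belonged to paralog groups 9 to 13. Paralogs 9 to 13 made up a median of 72.2% (range 68.4 to 75.7, n = 8) of the summed Hox CPM in WT ESCs.

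Values per kilobase of exon compare genes only where reads cover whole transcripts, and which kit each library used is not stated. On that scale the highest mean in WT ESCs was that of Hoxc13, a 5′ gene known for its part in hair and nail formation, at 4.98 CPM per kb. Hoxd13, the digit gene at the 5′ end of HoxD, followed at 4.40, Hoxc12 at 3.59 and Hoxd9 at 2.84 CPM per kb. In CPM, Hoxc13 had a mean of 12.3 ± 1.83 (SD, n = 8), Hoxd13 10.9 ± 1.85 and Hoxd9 6.20 ± 1.55 in the WT libraries. Hoxc12 read 2.02 to 5.51 CPM there, so its place above Hoxd9 held only per kilobase. The spreads of Hoxc13 and Hoxd13 overlapped, so that the order of these neighbours was not resolved.

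**Figure D1:**
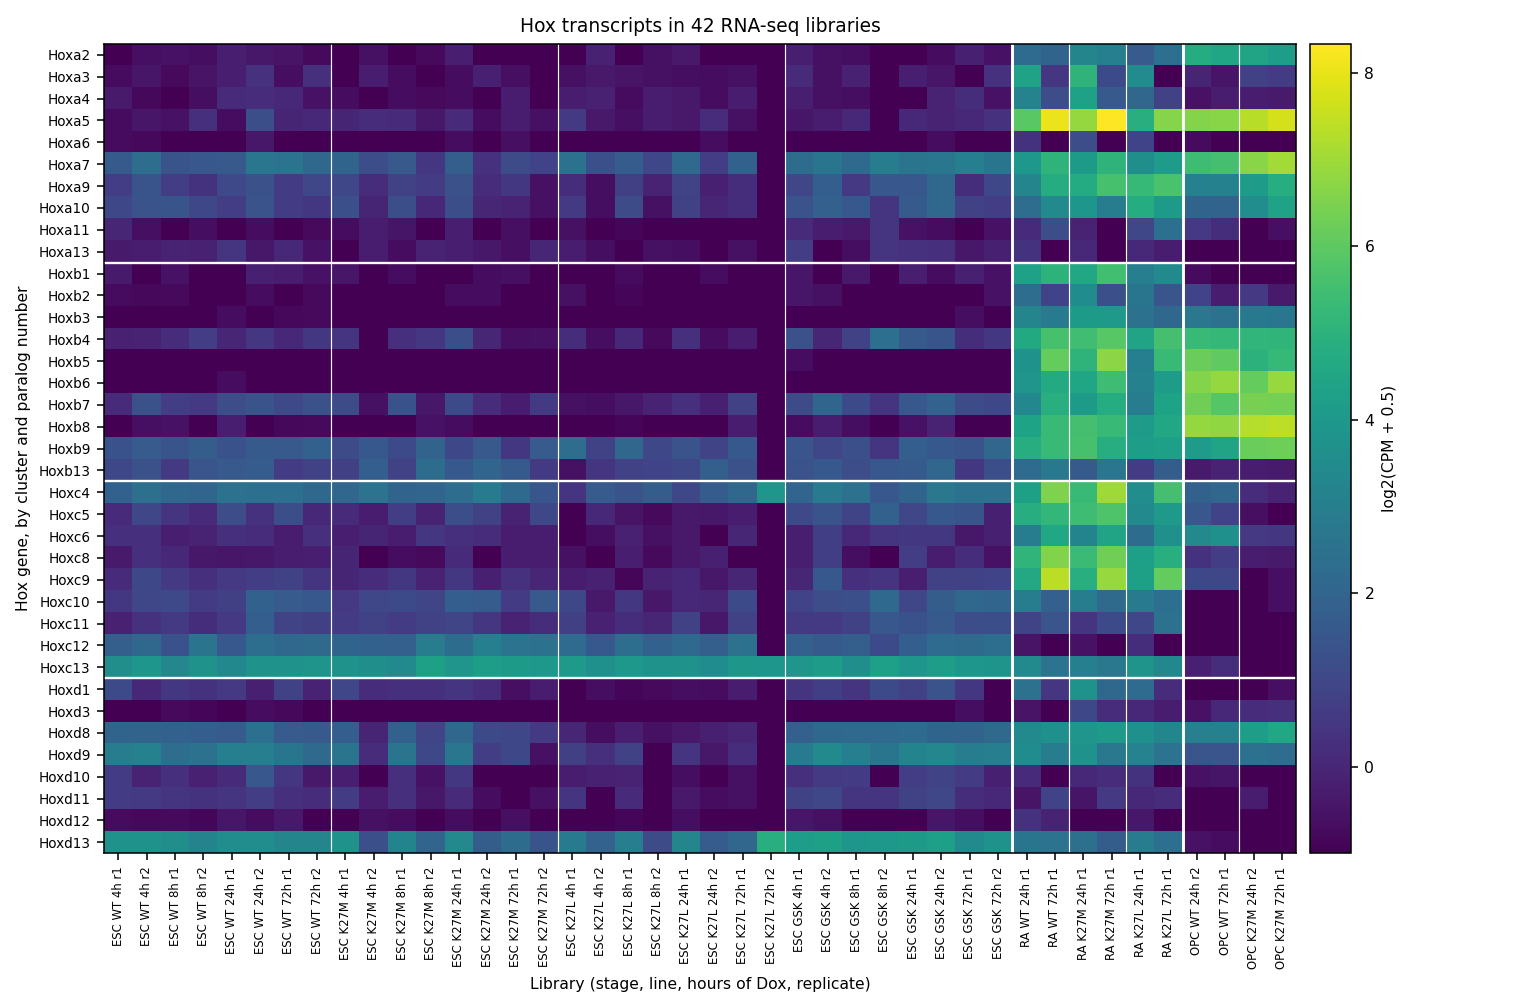
Expression of 37 Hox genes (rows, by cluster and paralog number) in 42 libraries (columns, by stage, line and Dox time), coloured by log2(CPM + 0.5). Few genes stand out in the ESC columns, mostly of paralog groups 9 to 13, while 17 genes have a mean above 10 CPM in RA cells at 72 h and 11 in OPC.

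The K27L line was compared with WT to ask how loss of the lysine itself bears on expression in ESCs. Of the 6 HoxD genes tested in ESCs, 3 were called lower in K27L over all times, and Hoxd10, Hoxd11 and Hoxd13 were not. With a term for replicate number in the model these 3 were called lower too, as they were without the filter on low counts. Hoxd8, a central HoxD gene, lay between 2.66 and 4.75 CPM in WT (median 3.10, n = 8) and between 0 and 0.510 in K27L (median 0.320, n = 8, on 0 to 7 counts). Hoxd9, its 5′ neighbour, lay between 4.04 and 8.11 in WT (median 6.33) and between 0 and 1.24 in K27L (median 0.669). Neither gene's ranges overlapped. For Hoxd1, the 3′ gene of HoxD and an early RA target, the range was 0.375 to 1.64 (median 0.858) in WT and 0 to 0.326 (median 0.105) in K27L, and these did not overlap either. Without K27L 72 h replicate 2, whose 0 carries no information at its depth, Hoxd8 lay between 0.137 and 0.510 in K27L, whereas Hoxd9 still had 0 at 8 h in replicate 2 and Hoxd1 at 4 h in replicate 1.

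Over the 4 Dox times the log2 fold change was −3.16 ± 0.36 for Hoxd8 (adjusted p = 5.27e-06), −3.11 ± 0.51 for Hoxd9 (0.000403) and −2.67 ± 0.52 for Hoxd1 (0.00184). The ESC fits held no replicate term and count the 4 times of a replicate as independent libraries. The K27L replicates differed in 8.6% of all genes (below), so these p-values do not measure the spread between replicates. The deposited identifiers place Hoxd8 (ENSMUSG00000027102) at chr2:74542672-74545990 and Hoxd9 (ENSMUSG00000043342) at chr2:74535737-74538265, both on the plus strand of mm9. Here and below, ± after a fold change is its standard error, p is from edgeR's quasi-likelihood test adjusted by Benjamini-Hochberg over all genes tested, and a gene counts as changed when its adjusted p is below 0.05 and its fold above 2 or below 0.5. Of the 20 Hox genes that passed the filter on low counts in ESCs, 6 fell and 0 rose, where 3.43% of all 14012 genes tested changed (2.8% fell, 0.628% rose). The other 3 that fell were Hoxc5 (−1.99 ± 0.51, adjusted p = 0.0149), Hoxb7 (−1.75 ± 0.46, 0.0188) and Hoxc9 (−1.50 ± 0.43, 0.0297). Hoxc5 lay between 0.550 and 1.85 CPM in WT and between 0 and 0.548 in K27L, and Hoxc9 between 0.613 and 1.55 and between 0 and 0.560, narrowly apart. Hoxb7 overlapped, at 0.613 to 2.12 in WT and 0 to 1.31 in K27L. The median log2 fold change of the 20 genes was −1.05. Hoxd1, Hoxd8, Hoxc5 and Hoxc9 had 0 to 7 counts in each K27L library and passed the filter on low counts through other groups. A call of higher in K27L was not open to them, so the counts of calls describe the genes tested only.

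At 24 and 72 h alone, where 0.507% of all genes changed (0.435% fell, 0.0714% rose), Hoxd8 was the 1 Hox gene that fell (−2.93 ± 0.55, adjusted p = 0.011). Hoxd9 had −3.33 ± 0.81 there with an adjusted p of 0.0559. Among the other HoxC genes, Hoxc10 had −1.05 ± 0.33 over all times (adjusted p = 0.0537), which passed with RLE factors and without the filter on low counts. Hoxc13 lay between 9.38 and 14.3 CPM in WT and between 11.2 and 15.8 in K27L, a log2 fold change of 0.17 ± 0.14 (adjusted p = 0.495). Leaving out K27L 72 h replicate 2 kept both counts (6 and 1). The 6 calls over all times fell to 1 without K27L 72 h replicate 1, which left that time to the library of 68378 counts, and rose to 10 without K27L 8 h replicate 1. Hoxc9 fell below the threshold without any 1 of 9 single libraries, Hoxc5 without WT 24 h or 72 h replicate 1 and Hoxb7 without WT 4 h replicate 2. The call at 24 and 72 h was lost without K27L 24 h replicate 1 or K27L 72 h replicate 1.

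For K27M in ESCs, 0 Hox genes passed the edgeR test, either at 24 and 72 h (0% of all genes changed) or over all times (0.0143%, with 0.00714% higher and 0.00714% lower), and DESeq2 also called 0 in both. At an unadjusted p below 0.05, 6 of the 20 genes were lower in each of the 2 comparisons and 0 were higher. At that p 321 of all 14012 genes were lower and 272 higher at 24 and 72 h, and 806 and 813 over all times. The estimate lay below 0 for 17 of 20 genes at 24 and 72 h, against 50.4% of all genes tested, with a median of −0.75. Hoxd9 had −1.32 ± 0.40 over all times (adjusted p = 0.199) and Hoxd13 −0.92 (0.293). The call over all times was not stable to single libraries, since 3 Hox genes passed without K27M 4 h replicate 1 and 1 passed without K27M 8 h replicate 1.

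The 2 replicates of the K27M line stood apart at HoxD. In WT, Hoxd9 was 7.05, 4.60, 7.71 and 5.61 CPM at 4, 8, 24 and 72 h in replicate 1 and 8.11, 5.11, 7.37 and 4.04 in replicate 2. In K27M it was 5.48, 5.53, 5.89 and 1.54 in replicate 1 and 0.650, 1.51, 1.13 and 0.168 in replicate 2. K27M replicate 1 thus lay within the WT range up to 24 h and below it at 72 h, and replicate 2 lay below it at every time.

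Hoxd13 showed the same split. K27M replicate 1 read 13.3, 8.75, 10.01 and 4.48 CPM and replicate 2 read 1.95, 3.65, 2.89 and 2.18. The WT libraries of both replicates lay between 8.43 and 13.2. In a comparison chosen after seeing the data, with Dox time in the model, 7 of 20 Hox genes were lower in K27M replicate 2 than in replicate 1 and 0 were higher, where 3.91% of all genes changed (1.66% higher, 2.26% lower). At an unadjusted p below 0.05, 9 were lower and 2 higher, among the latter Hoxb9, whose 0.93 ± 0.27 (adjusted p = 0.019) came just under 2-fold. At that p 2580 of all genes were lower and 2688 higher. The 7 called lower were Hoxd9 (−2.33 ± 0.32, adjusted p = 0.000169), Hoxd13 (−1.70 ± 0.26), Hoxd8 (−1.32 ± 0.29), Hoxa10 (−1.81 ± 0.40), Hoxa7 (−1.22 ± 0.34), Hoxa9 (−1.09 ± 0.35) and Hoxb7 (−1.56 ± 0.53). Hoxa7, Hoxa9 and Hoxb7 lost their calls when single K27M libraries were left out, and the count was 4 without the 24 h library of either K27M replicate.

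The same comparison gave 9 Hox genes lower in K27L replicate 2 (8.6% of all genes changed), led by Hoxd13 (−1.57 ± 0.30, adjusted p = 0.000574) and Hoxa10 (−2.37 ± 0.49, 0.0013) and with Hoxa7, Hoxa9, Hoxb4, Hoxb9, Hoxc10, Hoxd9 and Hoxd11 as the others. Hoxd13 in K27L was 6.97, 7.37, 9.09 and 3.75 CPM in replicate 1 and 3.29, 1.69, 2.76 and 29.2 in replicate 2, the last being 2 counts in the library of 68378. Between the WT replicates edgeR called 0 Hox genes (1.51% of all genes changed) and DESeq2 0. At an unadjusted p below 0.05, 2 Hox genes were higher and 1 lower, with 2392 of all genes higher and 2174 lower. Between the GSK replicates edgeR called 0 Hox genes (0% of all genes) and DESeq2 0. There 2 Hox genes were higher at an unadjusted p below 0.05, with 390 of all genes higher and 384 lower. The difference between the K27M and WT replicate effects passed for Hoxd9 alone (−2.30 ± 0.40, adjusted p = 0.0187, with 0.164% of all genes), and it passed for 0 Hox genes without any 1 of the WT or K27M libraries of 4, 8 or 24 h. The methods say that replicates were made weeks apart, and they do not say whether a replicate used the same clone.

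**Figure D2:**
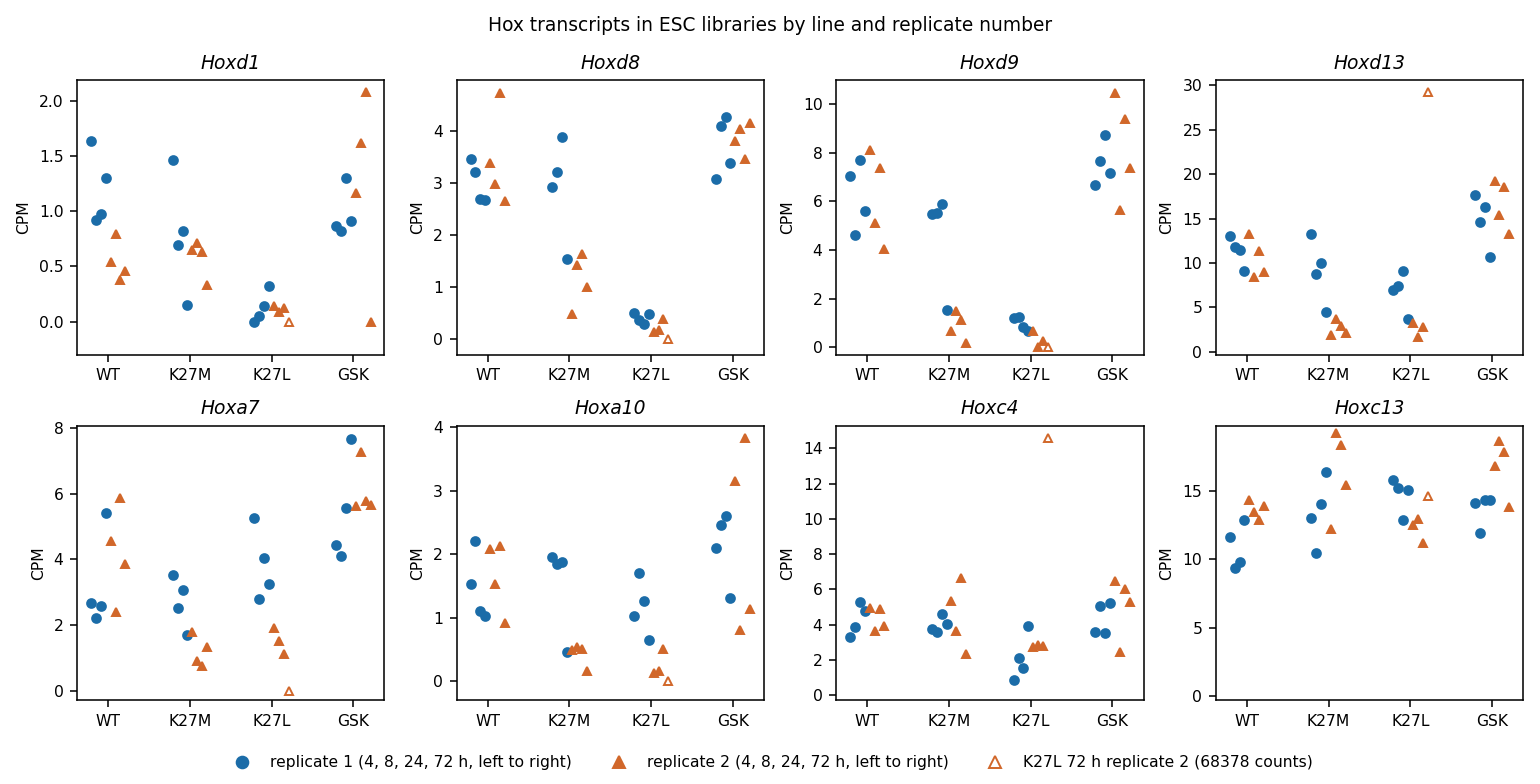
CPM of 8 Hox genes in undifferentiated ESCs by line and replicate, with 1 point for each Dox time. An open triangle marks K27L 72 h replicate 2, the library of 68378 counts, and K27M replicate 2 lies below K27M replicate 1 for Hoxd9 and Hoxd13 at each time.

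The PRC2 inhibitor GSK343 was added to the WT line to compare loss of PRC2 activity with the mutations. No Hox gene passed the test, at 24 and 72 h or over all times (0% of all genes in both), and DESeq2 called 0 as well. At an unadjusted p below 0.05, 0 Hox genes moved at 24 and 72 h, with 39 of all 14012 genes higher and 88 lower. Over all times 3 Hox genes were higher, with 201 of all genes higher and 477 lower. All 20 estimates lay above 0 at 24 and 72 h, against 44.1% of all genes tested. Their median was 0.27, beside −0.02 over all genes. Hoxb4, an RA-responsive hindbrain gene, lay between 0.409 and 1.13 CPM in WT and between 0.498 and 4.85 in GSK, and its log2 fold change of 1.19 ± 0.44 had an adjusted p of 0.973. From 4 to 72 h of Dox in ESCs, 0 Hox genes passed by edgeR or DESeq2. Of all genes 4.04% changed there (2.68% higher, 1.36% lower). At an unadjusted p below 0.05, 2 Hox genes were higher and 1 lower, with 2738 of all genes higher and 2761 lower. Between early (4 and 8 h) and late (24 and 72 h), edgeR and DESeq2 called a changed line effect for 0 Hox genes. This held in K27M, K27L and GSK. At an unadjusted p below 0.05, 1 Hox gene was lower in K27M and 0 moved in K27L and GSK. At that p 57 of all genes were lower and 24 higher in K27M, 91 and 86 in K27L and 72 and 35 in GSK.

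Genes of all 4 clusters were higher in the RA cells than in ESCs. Against ESCs at 24 h of Dox, 27 of 34 Hox genes tested rose and 1 fell, where 43.1% of all 16370 genes changed (24.6% rose). Genes close to 0 in ESCs passed the filter on low counts through the RA or OPC libraries, so the counts here and in the OPC comparisons describe the genes tested only. By cluster, 9 of 9 HoxA genes rose, 9 of 10 HoxB, 6 of 9 HoxC and 3 of 6 HoxD. Hoxb5 had 0 counts in the ESC libraries of that time and 864 in the 3 RA libraries, at least 512-fold higher with a floor of 3 counts over the group. Hoxb6, its neighbour, was 1134-fold higher (95% counting interval 203 to 44854). Hoxb8, a central HoxB gene, rose by 7.81 ± 0.40 on the log2 scale (adjusted p = 1.4e-19), Hoxb3, a hindbrain gene, by 8.39 ± 0.50, Hoxb1, also of the hindbrain, by 7.15 ± 0.48, and Hoxa5, a neck and lung patterning gene, by 6.76 ± 0.34 (1.2e-19).

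At 72 h 27 of 34 rose and 2 fell, where 58% of all genes changed (27.1% rose). Hoxb5 was at least 1348-fold and Hoxb6 at least 547-fold higher. Hoxa5 rose by 9.04 ± 0.38 (adjusted p = 1.4e-22), Hoxc8 by 7.94 ± 0.42 and Hoxc9 by 7.28 ± 0.35. Hoxc12 was 14.7-fold lower at 24 h (95% counting interval 7.89 to 31.1) and at least 12.7-fold lower at 72 h. Hoxc13 fell by 1.00 ± 0.28 at 72 h (adjusted p = 0.0018), at the 2-fold threshold, and did not reach it by DESeq2 (−0.63) or with RLE factors (−0.63). It had −0.37 at 24 h, which did not pass.

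Paralogs 9 to 13 held 24.8% (median of 3 lines, range 21.6 to 41.9) of the Hox CPM in RA cells at 24 h. At 72 h they held 25.2% (18.5 to 32.6). Paralogs 1 to 5 held 49.7% (34.5 to 55.2) at 24 h and 51.3% (45.9 to 60.4) at 72 h, against a median of 12.9% in WT ESCs. Paralogs 6 to 8 held 23.6% (23.2 to 25.5) and 21.6% (21.0 to 23.5), against 14.8%. Per kilobase, Hoxa5 was the highest at 24 h with a mean of 36.5 CPM per kb, ahead of Hoxc8 at 13.5, and at 72 h it reached 122, ahead of Hoxc9 at 48.4 and Hoxc4 at 35.0. The genes of the RA pathway list moved in the same samples: 13 of 17 rose at 24 h, with Cyp26a1, the RA-degrading enzyme, at 13.03 and Cyp26b1 at 9.32. Of the 8 cofactor genes 6 rose, among them Meis1 at 7.25. Across all genes the median log2 fold change was −0.54 in the shortest 20% of transcripts and 0.54 in the longest 20% at 24 h, and 0.22 and −0.36 at 72 h. The part of length in the Hox values was not tested.

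**Figure D3:**
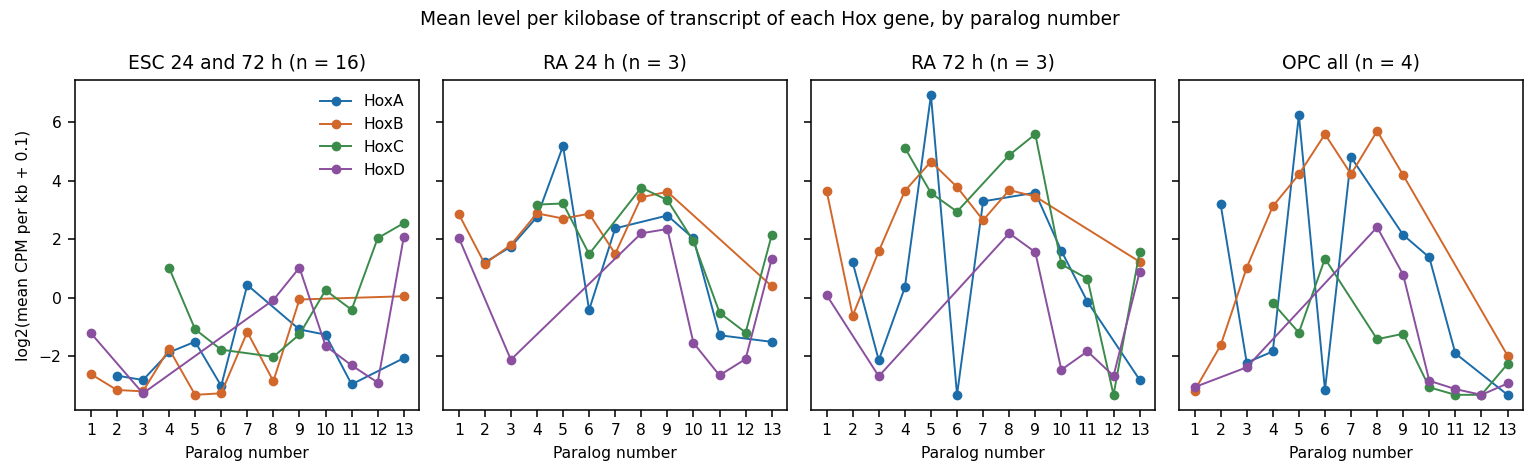
Mean expression by paralog group for each cluster, as log2(mean CPM per kb + 0.1), in ESCs at 24 and 72 h (16 libraries), RA cells at 24 h (3), RA cells at 72 h (3) and OPC (4). In ESCs Hoxc13 and Hoxd13 are the highest of their clusters and Hoxa7 of HoxA, while Hoxa5 is the highest gene in the RA and OPC panels.

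Within the RA cells Hox genes moved in both directions between 24 and 72 h of Dox. Hoxa3, a hindbrain and pharyngeal gene, was 20.2 CPM in WT, 33.0 in K27M and 10.95 in K27L at 24 h, and 0.891, 1.61 and 0 at 72 h. Hoxc4, a cervical gene, was 19.4, 38.2 and 11.5 CPM at 24 h and 92.6, 128 and 47.6 at 72 h. Hoxc9, a thoracic gene, was 24.5, 29.2 and 19.5 at 24 h and 166, 117 and 69.8 at 72 h. The 2 times did not overlap for any of these genes, Hoxa3 being high early and the other two late.

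With line in the model, 12 of 28 Hox genes tested were higher at 72 h and 4 lower, where 42.9% of all 12233 genes changed (20% higher, 22.9% lower). The 4 lower were Hoxa3 (−4.48 ± 0.40, adjusted p = 8.77e-07), Hoxa4 (−2.23 ± 0.37), Hoxd1 (−1.89 ± 0.39) and Hoxb2 (−1.71 ± 0.40). The higher ones included Hoxc9 (2.40 ± 0.18), Hoxb5 (2.26 ± 0.18), Hoxc4 (2.20 ± 0.16, 1.14e-07), Hoxa5 (2.0 ± 0.15) and Hoxb13 (1.19 ± 0.38, 0.0145). The Hoxb13 call was lost by DESeq2 (adjusted p = 0.0522) and without K27M 24 h, K27M 72 h or K27L 24 h. The other 7, Hoxa7, Hoxa9, Hoxb4, Hoxb6, Hoxb7, Hoxc6 and Hoxc8, rose by 1.03 to 1.68. In paralog groups 4 and 1 other genes went the other way: Hoxb4 and Hoxc4 rose where Hoxa4 fell, and Hoxb1 had 0.98 ± 0.19 (adjusted p = 0.00048), just under 2-fold. The Hoxb4 change came under 2-fold in 5 alternative fits (0.875 to 0.996). In paralog group 3, Hoxb3 was not called but was lower at 72 h in each line, as Hoxa3 was. It read 9.03 and 6.68 CPM at 24 and 72 h in WT, 16.6 and 15.8 in K27M and 5.08 and 3.81 in K27L. Hoxb13 is the most 5′ gene of HoxB and lay apart from the others in paralog number and level. The antisense transcript Hoxb3os rose by 2.51. It overlaps Hoxb2 and Hoxb3 on the other strand, and since the strand setting of the counting is not given in the sources used here, its reads and theirs cannot be told apart. The same holds for Hoxa3, which overlaps 3 antisense transcripts, and for Hoxa7, Hoxa11, Hoxb5 and Hoxd3, which overlap 1 each. The time in RA of the 24 h cells is not given in the sources used here, so Dox time and time in RA cannot be told apart. Over all genes the median was 0.79 in the shortest 20% and −0.59 in the longest 20% of transcripts.

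In RA cells the Hox levels of the K27M line lay mostly above those of WT and the levels of the K27L line mostly below. Hoxa5 was 61.9 and 265 CPM at 24 and 72 h in WT, 115 and 322 in K27M and 28.2 and 99.4 in K27L. Hoxc5, a cervical gene, was 27.5 and 35.6 in WT, 43.1 and 53.3 in K27M and 10.7 and 15.6 in K27L. Hoxb1 was 19.6 and 32.1 in WT, 23.0 and 44.9 in K27M and 7.48 and 10.5 in K27L. At each time the order was K27M, WT, K27L for these 3 genes.

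Against WT, K27L had 4 Hox genes lower and 2 higher of 28, where 3.64% of all genes changed (2.13% lower, 1.5% higher). The lower ones were Hoxa5 (−1.31 ± 0.19, adjusted p = 0.0032), Hoxc5 (−1.31 ± 0.21), Hoxb1 (−1.50 ± 0.24) and Hoxc8 (−1.30 ± 0.22). The higher ones were the 5′ HoxA genes Hoxa9 (1.46 ± 0.26, 0.0085) and Hoxa10 (1.72 ± 0.42, 0.032). Hoxa10 was 4.52 and 10.2 CPM in WT and 27.1 and 16.5 in K27L, and its call was lost without WT 24 h or K27L 24 h. The Hoxa9 change came just under 2-fold without WT 24 h and that of Hoxc8 without WT 72 h or K27L 72 h. Hoxd8 stood between 9.21 and 15.5 CPM in all 6 RA libraries. Against WT, K27M had 0 Hox genes called by edgeR and 0 by DESeq2. Of all genes 0.0163% changed (0.00817% higher, 0.00817% lower). At an unadjusted p below 0.05, 13 Hox genes were higher and 0 lower, with 318 of all 12233 genes higher and 433 lower. The estimate was above 0 for 23 of 28 Hox genes, against 52.9% of all genes. The median estimate was 0.55, beside 0.02 over all genes. However, 4 Hox genes passed without WT 72 h and 1 without K27M 72 h, K27L 24 h or K27L 72 h.

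Set directly against K27L, K27M had 14 Hox genes higher and 0 lower, where 6.72% of all genes changed (3.13% higher). They came from all 4 clusters: Hoxa2 to Hoxa5, Hoxb1, Hoxb3, Hoxb5, Hoxb6, Hoxb8, Hoxb9, Hoxc4, Hoxc5, Hoxc8 and Hoxd1. At an unadjusted p below 0.05, 20 Hox genes were higher and 2 lower, with 1556 of all genes higher and 1509 lower. Without the filter on low counts, 14 were called higher and 2 lower, the latter being Hoxa10 and Hoxa11. Hoxa5 had 1.85 ± 0.18 (adjusted p = 0.000123) and Hoxc5 1.88 ± 0.20 (0.000142). The count was 6 without K27M 24 h and 9 without K27L 24 h, and with the 2 Dox times pooled as replicates 0 Hox genes and 0 of all 12233 genes passed in any pair of lines, with folds of similar size (Hoxa5 1.76, Hoxc5 1.85 for K27M against K27L). DESeq2 called 11.

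**Figure D4:**
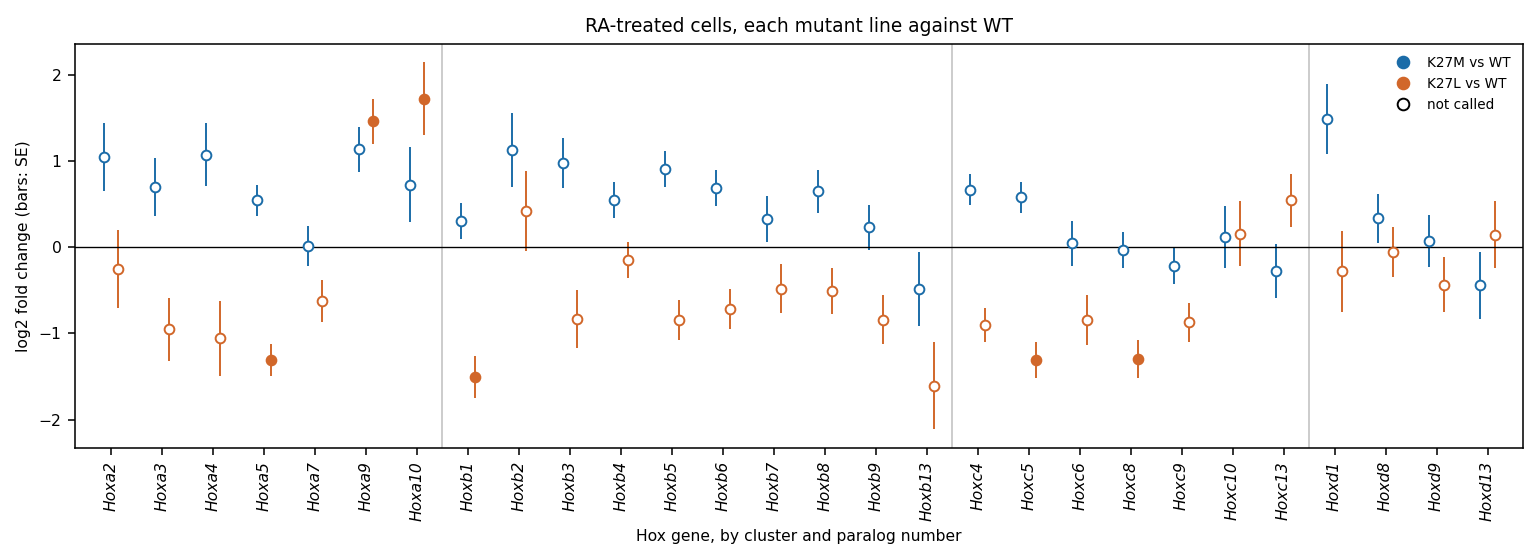
Log2 fold change of 28 Hox genes in RA cells for K27M against WT and K27L against WT, with standard errors. Filled points passed the test: K27M has none, K27L has 4 below 0 and 2 (Hoxa9 and Hoxa10) above it.

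Markers of other cells moved between the same RA libraries. The summed CPM of 10 extraembryonic endoderm markers was 5417 to 11465 in WT, 3454 to 3761 in K27M and 11617 to 25416 in K27L. Of the 8 tested, 7 were higher in K27L than in WT and 8 lower in K27M than in K27L. The ESC marker sum was 111 to 152 CPM in WT, 105 to 106 in K27M and 271 to 344 in K27L, and that of neural progenitors 1039 to 1170, 881 to 2269 and 428 to 845. Of 16 RA pathway genes, K27L had 1 higher (Crabp1, a cellular RA-binding protein, 1.65) and 3 lower than WT. The part of these cells in the Hox values was not tested.

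In the OPC cultures the Hox expression was mainly that of HoxA and HoxB. Against ESCs 16 of 34 Hox genes were higher and 11 lower, where 67.7% of all genes changed (32.1% higher, 35.5% lower). HoxA had 6 of 9 higher and HoxB 8 of 10, whereas HoxC had 5 of 9 lower and HoxD 4 of 6 lower. Hoxb8 was higher by 10.35 ± 0.31 (adjusted p = 4.3e-28) and Hoxa5 by 7.80 ± 0.28, and Hoxc13 was lower (−5.40 ± 0.35, 1.7e-17). Hoxd13 was 97.3-fold lower (95% counting interval 33.2 to 473), Hoxc12 at least 46.8-fold and Hoxc11 at least 15.1-fold. Per kilobase Hoxa5 stood at a mean of 76.2 CPM per kb, Hoxb8 at 52.1 and Hoxb6 at 48.3.

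Against RA cells 5 Hox genes were higher and 18 lower in OPC, where 43.9% of all genes changed (20.8% higher, 23.1% lower). The higher ones were Hoxb6 (2.0 ± 0.24), Hoxa7 (1.96 ± 0.34), Hoxb8 (1.92 ± 0.26), Hoxb7 (1.83 ± 0.33) and Hoxa2 (1.83 ± 0.38). Of HoxC, 8 of 9 genes were lower, among them Hoxc9 (−6.35 ± 0.41) and Hoxc8 (−6.38 ± 0.44). Hoxb7 and Hoxb8 share exon sequence on the same strand, so their values may share reads.

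K27M OPC differed from WT OPC in genes of all 4 clusters, those of HoxC being tested through their WT counts alone. The HoxC genes detected in WT OPC had lower counts in K27M. Hoxc6, a thoracic gene, was 10.1 CPM at 24 h and 12.4 at 72 h in WT and 0.951 and 0.890 in K27M, on 104 and 110 counts against 6 and 6. It lies at chr15:102828688-102842312 on the plus strand of mm9 (ENSMUSG00000001661). Hoxc4 was 3.21 and 3.72 CPM in WT and 0.634 and 0.445 in K27M. Hoxc5 was 2.43 and 1.35 in WT and 0.158 and 0 in K27M. For each of these genes both K27M libraries lay below both WT libraries.

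The ratio of WT to K27M counts per total was 12.1 for Hoxc6 (95% counting interval 6.81 to 23.9), 6.42 for Hoxc4 (2.95 to 16.6), 25.2 for Hoxc5 (4.25 to 1022) and 19.8 for Hoxc9 (3.28 to 807). These intervals cover counting error only. Of 9 HoxC genes, 4 were tested, and these passed the filter on low counts through WT alone, with 0 to 6 counts in each K27M library. They were called lower, the only call open to them, so the calls add nothing to the counts above. The log2 fold change was −3.60 ± 0.37 for Hoxc6 and −2.66 ± 0.51 for Hoxc4. The whole cluster summed to 18.5 to 20.8 CPM in WT and 1.93 to 2.06 in K27M. Hoxc13 had 4 and 6 counts in WT and 0 and 0 in K27M, at least 2.27-fold lower.

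Of 5 HoxA genes tested 3 were higher in K27M OPC, as were the 2 HoxD genes tested. Hoxa7, a thoracic gene, was 42.4 and 47.4 CPM in WT and 101 and 131 in K27M. Hoxa10, a lumbar gene, was 3.50 and 3.38 in WT and 11.4 and 20.2 in K27M. Hoxd8 was 7.97 and 8.12 in WT and 17.7 and 23.6 in K27M. In the test Hoxa7 had 1.36 ± 0.16 (adjusted p = 4.7e-05), Hoxa10 2.19 ± 0.32 (0.000206), Hoxa9 1.45 ± 0.26 (0.000761), Hoxd8 1.35 ± 0.23 (0.000545) and Hoxd9 1.09 ± 0.35 (0.0217). Hoxa5 had 0.92 ± 0.15 (adjusted p = 0.000521), under 2-fold, and Hoxa2 −0.34 ± 0.20 (0.174). Hoxa11, which was not tested, had 10 and 6 counts in WT and 0 and 1 in K27M, a ratio of WT to K27M of 10.9 (95% counting interval 1.69 to 457), and was called lower without the filter. The Hoxd9 call was lost without WT 24 h, WT 72 h or K27M 24 h, and by DESeq2.

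Within HoxB, the genes split. Hoxb9, the 5′ thoracic gene, was 17.4 and 21.3 CPM in WT and 72.7 and 76.0 in K27M (1.94 ± 0.17, adjusted p = 5.11e-06). Hoxb5 was 73.7 and 65.9 in WT and 31.5 and 37.5 in K27M (−1.02 ± 0.15, 0.000275), which came under 2-fold without WT 24 h or K27M 24 h. Between them in the cluster, Hoxb6 had −0.17, Hoxb7 0.28 and Hoxb8 0.54, of which Hoxb8 passed the adjusted p (0.00433) without reaching 2-fold. Hoxb4, next to Hoxb5 on the 3′ side, was 38.7 and 36.3 in WT and 34.7 and 33.8 in K27M.

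In K27M OPC 27.9% of all 12467 genes changed (12.9% rose, 15% fell). In total 6 of 18 Hox genes tested rose and 5 fell, 4 of the 5 being HoxC genes tested through their WT counts alone. The count was 7 without WT 24 h. The HoxC share of the Hox CPM was 3.10% in WT and 0.229% in K27M, that of HoxA 28.6% and 40.9% and that of HoxB 66.5% and 55.9%.

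**Figure D5:**
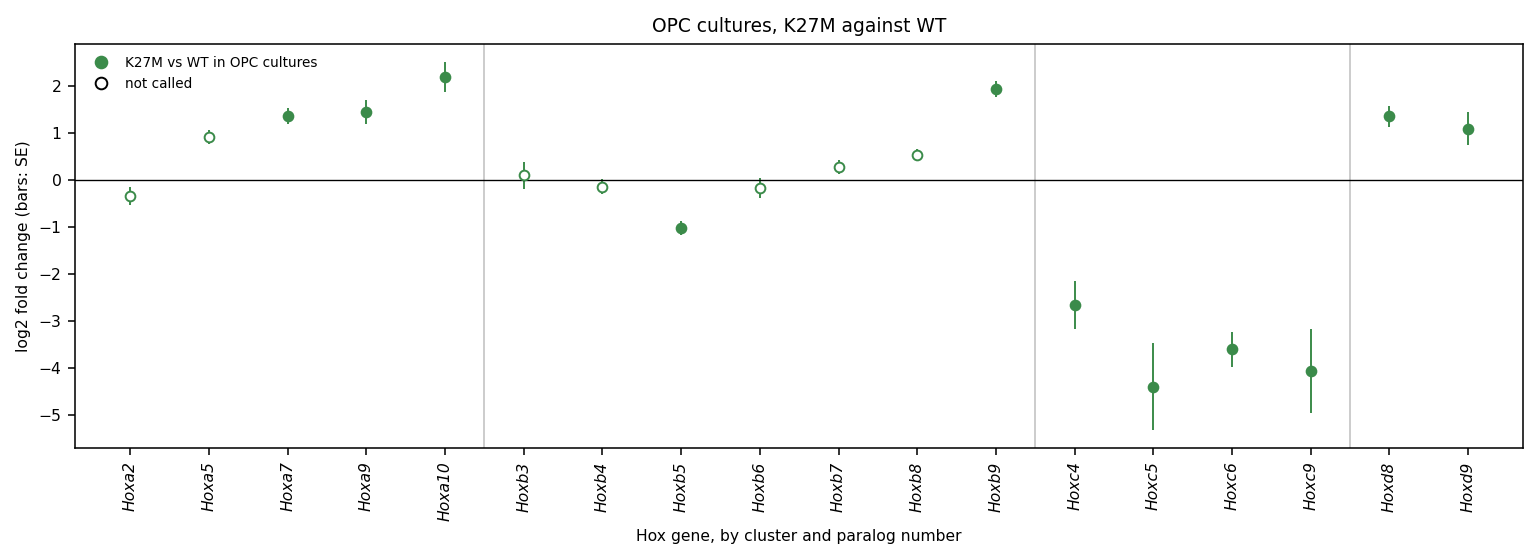
Log2 fold change of K27M against WT OPC for the 18 Hox genes tested, by cluster and paralog number, with standard errors. Hoxa7, Hoxa9, Hoxa10, Hoxb9, Hoxd8 and Hoxd9 lie above 0 and Hoxb5 and the 4 HoxC genes, which were tested through their WT counts, below it, and filled points passed the test.

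The K27M and WT OPC cultures also differed in their cell markers. Of 8 OPC markers 6 were higher and 2 lower in K27M, with sums of 933 to 950 CPM in WT and 2687 to 3105 in K27M. Of 8 fibroblast markers 7 were lower and 1 higher, with sums of 1296 to 1420 CPM in WT and 45.7 to 49.4 in K27M. All 7 extraembryonic endoderm markers tested were lower, with sums of 3203 to 3618 and 764 to 988. Of 11 ESC markers, 6 (Pou5f1, Dppa3, Dppa5a, Fgf4, Tdgf1 and Utf1) were at 0 in all 4 libraries, and the list summed to 119 to 127 CPM in WT and 32.5 to 38.7 in K27M, with 1 of 2 tested higher and 1 lower. Of 9 RA pathway genes 5 were lower, led by the RA-synthesising enzymes Aldh1a2 (−5.01) and Aldh1a3 (−2.97). Of 19 Polycomb genes 6 were higher and 1 lower, led by Cbx2 (1.95) and Ezh2 (1.60). The part of these cells in the Hox values was not tested.

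The K27M effect differed between the OPC and RA cells for 9 of 31 Hox genes, in a test of the difference itself that was chosen after seeing the data (18.1% of all 14284 genes). The effect was lower in OPC for Hoxc4, Hoxc5, Hoxc6, Hoxc9, Hoxc13, Hoxb5 and Hoxa2 and higher for Hoxb9 and Hoxa7. DESeq2 called 7, without Hoxa2 (adjusted p = 0.0824) and Hoxc13 (0.0775). Both also lost their calls without any 1 OPC library or K27M RA 24 h, and Hoxc13 without K27M RA 72 h or either K27L RA library. Hoxc4 had −3.34 ± 0.49 on this scale, since in RA cells it read 19.4 and 92.6 CPM in WT and 38.2 and 128 in K27M.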

How the data were processed

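RNA was extracted, reverse transcribed with a QuantSeq 3′ or KAPA mRNA kit (which was used per library is not given in the sources used here), and sequenced single-end. The authors used STAR 2.7.1 with the mm9 genome and a limit of 10 mismatches per read, and deposited raw gene counts. Per their methods, a gene with several variants took the value of its highest variant. The counter, annotation and strand setting are not given in the sources used here. The 42 RNA-seq libraries of 155 series samples were used. Total counts per library are given in the report, and intervals and floors (3 counts over a group) cover counting error only.

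Genes were matched by identifier to mm9 annotation (32589 genes holding 98.17% of counts, the other 22882 kept), and 2532 genes of chromosome 8 (5.85% of counts) were left out, as in the study. Comparisons used edgeR 4.0.16 (quasi-likelihood test, TMM factors, filterByExpr) in R 4.3.3 with Benjamini-Hochberg adjustment over all genes tested, and called genes at adjusted p below 0.05 and fold above 2 or below 0.5. ESC libraries were fitted together by line and Dox time, and RA libraries with line and Dox time as terms. OPC libraries were fitted by line alone, with the 2 Dox times as replicates, and stages in a joint fit of all libraries. DESeq2 1.42.0, other factors, no filter, chromosome 8 kept, a replicate block and single libraries left out were the alternatives. The fits were tested on simulated data before use. Figures were drawn with matplotlib 3.10.9.

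The members and gene lists were chosen with earlier results of these data known, and support nothing by being chosen. Members named were those called in a comparison (above 12, at least the 4 of lowest adjusted p and the 4 of largest fold in each direction) and the highest of each cluster per stage, with a few that did not pass named after their values were seen. For a list, the 2 genes of largest absolute change were named, except that some items are not reported here.  The comparison of K27M effects between stages and those between replicates were chosen after seeing the data. Replicate numbers come from the labels. WT and K27M ESC libraries of the same number deviated together (correlations of 0.615, 0.714, 0.608 and 0.712 at 4, 8, 24 and 72 h), so the numbers pair them. The reported ESC model does not hold this pairing, and the replicate block does. None of the 16 replicate pairs of the ESC groups agreed within sampling noise.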

Additional observations from a re-analysis of the deposited data

Results flagged for a closer look

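A set of Hox genes differed between the K27M and K27L lines in RA cells, both being mutants measured against the same WT. The log2 difference of K27M minus K27L was 1.85 for Hoxa5, 1.88 for Hoxc5, 1.57 for Hoxc4, 1.75 for Hoxb5, 1.81 for Hoxb1, 1.40 for Hoxb6 and 1.80 for Hoxb3. It was 1.26 for Hoxc8, 2.13 for Hoxa4, 1.64 for Hoxa3, 1.16 for Hoxb8, 1.76 for Hoxd1, 1.07 for Hoxb9 and 1.30 for Hoxa2. Without K27M 24 h the calls of Hoxa2, Hoxa3, Hoxa4, Hoxb3, Hoxb8, Hoxb9, Hoxc8 and Hoxd1 were lost.

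The K27M effect differed between OPC and RA cells for 9 Hox genes. The log2 difference, OPC minus RA, was −3.65 for Hoxc6, −1.93 for Hoxb5, −3.34 for Hoxc4, −4.94 for Hoxc5 and −3.85 for Hoxc9. It was −1.40 for Hoxa2, −4.84 for Hoxc13, 1.68 for Hoxb9 and 1.33 for Hoxa7. The Hoxc13 value depends on 0 counts in both K27M OPC libraries and is no bound. The number of Hox genes called ranged from 6 to 10 when single libraries were left out.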

How the results depend on the processing

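Counts below are of Hox genes called. K27L against WT in ESCs at 24 and 72 h gave 1 and became 2 by DESeq2, 2 with a replicate block and 3 without the filter on low counts. Without the filter K27M against WT in ESCs gave 4 at 24 and 72 h and 2 over all times in place of 0, K27L over all times 12 in place of 6, 72 against 4 h in ESCs 1 in place of 0, and K27M against WT in RA cells 1 in place of 0. Dropping the fold threshold gave 1 for 72 against 4 h in ESCs. Pooling the RA Dox times as replicates gave 0 for K27L against WT and 0 for K27M against K27L. The difference between the K27M and WT replicate effects gave 2 by DESeq2 and 6 without the filter, in place of 1. The cause was not tested.

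Leaving out single libraries gave these ranges: K27M against WT in ESCs over all times 0 to 3; K27L at 24 and 72 h 0 to 2 and over all times 1 to 10; 72 against 4 h 0 to 2; RA K27M against WT 0 to 4, K27L against WT 5 to 8 and K27M against K27L 6 to 16; OPC K27M against WT 7 to 11; replicate 2 against 1 in WT 0 to 1 and in K27M 4 to 9; and their difference 0 to 6. Libraries that moved a count by over 1.5 times, beyond those named in the report, were each of WT 72 h and K27M 72 h for the WT replicates (1); K27M 4, 8 or 24 h and K27L 8 h, either replicate, for K27L at 24 and 72 h (2); WT 72 h (3) and K27M 72 h (6) for the replicate difference; and for 72 against 4 h K27M 4 h replicate 2 (2) and WT 4 h replicate 2, K27M 72 h replicate 1 and either replicate of K27L 4 or 8 h (1). The stage comparisons stayed within 1.5 times. Of 6528 values of named genes under alternatives, 206 lost the call and 0 reversed.

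A replicate block raised K27L over all times from 6 to 9, adding Hoxd10, Hoxd11 and Hoxd13, and changed no K27M count of Hox genes. Of all 14012 genes it called 23 for K27M over all times in place of 2, and 2 at 24 and 72 h in place of 0. In OPC the number coincides with Dox time in the labels, which the reported model does not hold, so the block acts there as a Dox time term. With it 11 Hox genes and 3507 of all genes were called, against 11 and 3482 without it. The column names give all 4 libraries the number 2. WT and K27L libraries of the same number correlated by −0.598, −0.707, −0.676 and 0.261 at the 4 times, so K27L mostly deviated opposite to WT. WT and GSK correlated by 0.007, −0.298, −0.460 and 0.586, with no constant sign. The number thus does not pair K27L or GSK with WT as it does K27M, and the reason was not tested. In RA cells the lines pair by Dox time, which the reported model holds (correlations with WT of 0.932 for K27M and 0.920 for K27L). Depth limits the ESC values of the 22 members below 1 CPM.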

Other observations

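The HoxD genes summed to 17.1 to 27.6 CPM in WT ESCs (median 23.4, n = 8), 3.86 to 24.6 in K27M (median 7.81), 1.94 to 29.2 in K27L (median 7.70) and 24.1 to 37.4 in GSK (median 29.9). The highest K27L value, 29.2 CPM, is that of the library of 68378 counts. All members together summed to 54.7 to 82.0 CPM in WT, 39.5 to 70.5 in K27M, 29.1 to 58.3 in K27L and 71.2 to 103 in GSK. In OPC, 4 members had 0 counts in all libraries, and 11 had a mean above 10 CPM, against 17 in RA cells at 72 h.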
